A study of Mus musculus with 6 samples.

Results

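The sirtuins are the NAD-dependent class of lysine deacylases, and the mouse has 7 of them, Sirt1 to Sirt7. The members were the rows of the deposited gene table that carry these gene names with an Ensembl mouse identifier, and all 7 were found among 60193 rows. The study asked how maturation in vitro (IVM) and in vivo (IVO) differ in metaphase II (MII) oocytes of ICR mice of advanced reproductive age, 42 to 45 weeks. IVM oocytes were collected from primed ovaries at the germinal vesicle stage, freed of their cumulus cells and cultured for 12 h in M16 medium. IVO oocytes were flushed from the oviduct 14 h after hCG, the hormone that triggers ovulation, and their cumulus cells were removed with hyaluronidase. Both groups had received PMSG, the hormone that stimulates follicle growth, and each of the 3 IVM and 3 IVO libraries was a pool of 20 oocytes from 3 mice. No genotype separated the groups, but the IVO mice alone received hCG and the IVO oocytes alone were exposed to hyaluronidase. The IVM oocytes matured without cumulus cells and the IVO oocytes with them. Route, cumulus contact, hCG, the enzyme and time since hormone therefore cannot be told apart. Each value is an FPKM, the number of fragments on a gene scaled by transcript length and library size, which allows levels of different genes to be set side by side.

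Sirtuins remove acetyl and related acyl groups from lysines and consume NAD in doing so, which ties their activity to the metabolic state of the cell. SIRT1, SIRT6 and SIRT7 are mainly nuclear, SIRT2 is mainly cytoplasmic and SIRT3, SIRT4 and SIRT5 are mitochondrial. In the oocyte, which makes almost no new RNA after the germinal vesicle stage, transcript levels depend on storage and decay, and the cytoplasmic polyadenylation element in a 3′ UTR is a known control of tail length and translation during maturation.

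The 3′ ends of the sirtuin transcripts are shown because the cDNA kit primes at the poly(A) tail and because stored oocyte transcripts are regulated there. Tail length was not measured. An FPKM may therefore depend on tail length as well as on the amount of a transcript, between genes and between groups, and this was not tested. In the last 100 bases of the canonical transcripts (GENCODE annotation on GRCm39), read on the transcript strand only, a poly(A) signal (AATAAA or ATTAAA) stood in 6 of 7 sirtuins, and those letters were not in this window of Sirt1. Of 19612 canonical coding transcripts, 77.4% held such a signal in the same window. A cytoplasmic polyadenylation element (TTTTAT or TTTTAAT, neither of which contains a poly(A) signal) stood in that window of Sirt4 alone, against 17.0% of the 19612 transcripts. In Sirt4 it began 18 bases from the transcript end and the poly(A) signal 28 bases, so the match lay downstream of the signal. The elements are matches of letters, and whether they act was not tested. Over the whole 3′ UTR, Sirt1 held 4 of these elements, Sirt4 held 2, Sirt5 and Sirt6 held 1 each, and Sirt2, Sirt3 and Sirt7 held 0. The UTRs differ in length, from 1834 bases in Sirt1 and 785 in Sirt5 to 395 in Sirt4, and longer ones hold more matches by their length alone. Below are the last element of Sirt1 and of Sirt4, the most abundant sirtuins, and the poly(A) signal of Sirt2, the only member whose IVM and IVO values did not overlap. Capitals mark the motif, and all sequences run 5′ to 3′ on the transcript strand.
Sirt1 element, chr10:63154831-63154860, minus strand, 268 bases from the transcript end: acaaaaacagtgTTTTATacttgtatcttg
Sirt4 element, chr5:115616065-115616094, minus strand, 18 bases from the transcript end: ataataaattatTTTTAATagcataacaaa
Sirt2 poly(A) signal, chr7:28488048-28488077, plus strand, 26 bases from the transcript end: tattagaaacaaATTAAAaaacaaaacaaa

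Sirt1 and Sirt4 made up most of the summed sirtuin FPKM in both groups. Together they held 74.7% to 86.2% of the summed FPKM of the 7 sirtuins in the IVM samples and 81.4% to 87.5% in the IVO samples. Sirt1 was the highest member in each of the 6 samples, Sirt4 was the next, and the ranges of these 2 did not overlap with each other or with any other member in either group. In IVM the mean levels then ran Sirt7, Sirt6, Sirt3, Sirt2 and Sirt5, and each neighbour in this order overlapped in range with the next. In IVO the order was Sirt6, Sirt7, Sirt3, Sirt5 and Sirt2, again with overlap between neighbours. With the median in place of the mean, Sirt2 and Sirt5 exchanged places in IVM and Sirt6 and Sirt7 exchanged places in IVO.

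**Figure D1:**
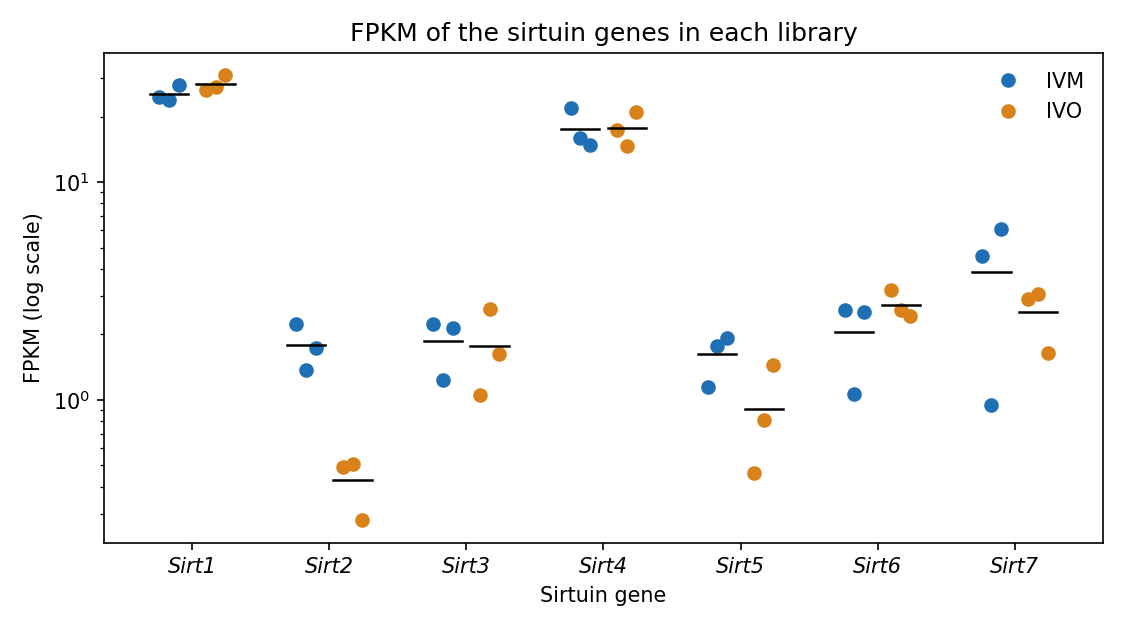
FPKM of the 7 sirtuins on a log axis in each IVM and IVO sample, with points for samples and bars for the mean of 3. Sirt1 and Sirt4 lie above the other 5 members in every sample, and Sirt2 is the member whose IVM and IVO points separate.

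The groups were tested with limma, which took log2(FPKM + 1) for each of 18818 genes whose 6 samples averaged 1 FPKM or more, and all 7 sirtuins were among them. The log2FC is IVO minus IVM on this scale, which understates the change of genes at low FPKM, and a DEG had an absolute log2FC of at least 1 with a Benjamini-Hochberg adjusted p under 0.05. In limma no sirtuin was a DEG (0 of 7), against 18.5% of the genes tested. At the adjusted p alone, 1 of 7 sirtuins passed, Sirt2, which was lower in IVO, against 23.4% of all genes in either direction and 21.5% in that direction. Among the members 0 of 7 passed with higher values in IVO, against 1.87% of all genes. Sirt2 was also the single member with an unadjusted p under 0.05, against 31.4% of all genes that were lower and 5.56% that were higher at that threshold. The median log2FC over all tested genes was -0.296, and the median of the 7 sirtuins was the value of Sirt3, -0.07. The study calls the 3 pools of a group biological replicates, and the p-values measure the spread between these pools.

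Sirt2, the cytoplasmic member, deacetylates tubulin, histone H4 lysine 16 and the spindle checkpoint kinase BUBR1. Its level was 2.24, 1.37 and 1.73 FPKM in the 3 IVM samples and 0.49, 0.51 and 0.28 FPKM in the 3 IVO samples. All IVM samples lay above all IVO samples, and IVM replicate 2 was the lowest of its group. The mean was 1.78 ± 0.437 FPKM in IVM and 0.427 ± 0.127 in IVO (SD, n = 3 each), a ratio of means of 4.17, IVM over IVO. The log2FC was -0.95 (SE 0.26, 95% interval -1.57 to -0.34, limma adjusted p = 0.0377). The mean over the 6 samples was 1.10 FPKM, so Sirt2 passed the filter on low values only through its IVM level. Non-overlap of the groups with lower IVO values was found in 1 of 7 sirtuins and in 32.6% of all tested genes. Non-overlap with higher IVO values was found in 0 of 7 sirtuins and in 9.62% of all tested genes, and in either direction in 42.2% of them.

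The Sirt2 reads were few, and the call did not hold over all library sets and scalings tried. From the steps between low FPKM values, depth was inferred as 16650000 to 19250000 fragments per library, and the Sirt2 values then correspond to 43 to 61 fragments in the IVM samples and to 8 to 15 in the IVO samples. Exact Poisson 95% intervals for counting error alone gave a lowest IVM bound of 0.985 FPKM, in IVM replicate 2, and a highest IVO bound of 0.866 FPKM, in IVO replicate 2. When each sample was left out in turn, the adjusted p of Sirt2 ranged from 0.0401 without IVM replicate 2 to 0.0978 without IVO replicate 3, and the call was lost in 5 of 6 cases. The log2FC ran from -1.06 to -0.84 in these fits. Each had fewer samples, and DEGs over all genes fell from 3480 to between 2363 and 3304. The Sirt2 call was also lost with median-ratio scaling of the libraries (log2FC -0.80, adjusted p = 0.0637) and with quantile normalization (log2FC -0.46, adjusted p = 0.210). Across 17 alternative fits the log2FC of Sirt2 was negative in each. It was -1.84 with a pseudocount of 0.1, a scale on which changes at low FPKM are larger, and ran from -1.15 to -0.46 in the others.

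**Figure D2:**
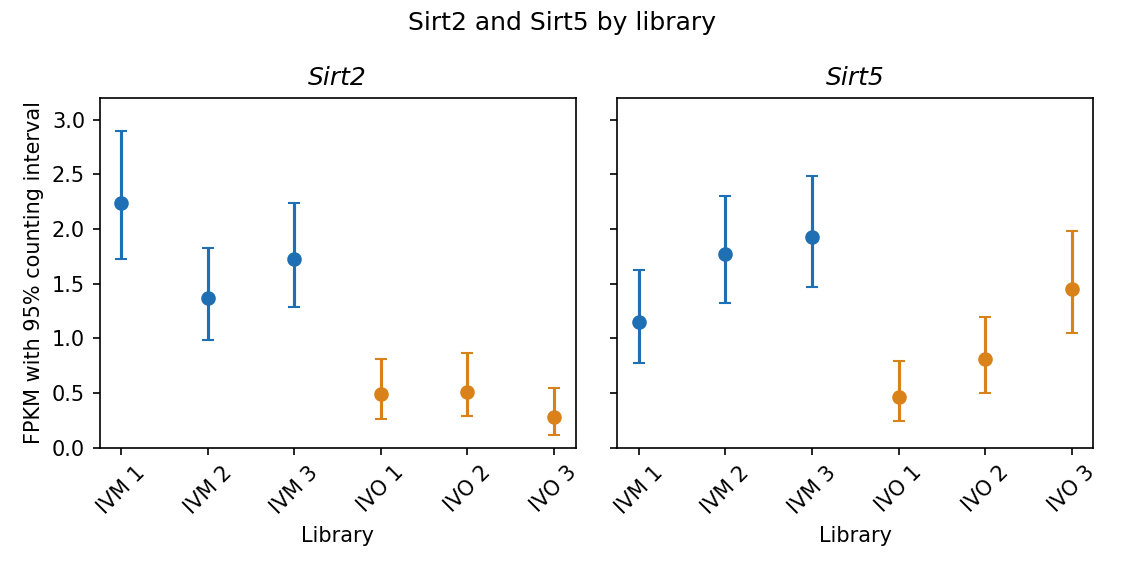
FPKM of Sirt2 and Sirt5 in each of the 6 samples, with exact Poisson 95% intervals for counting error as bars. The Sirt2 intervals of the IVM and IVO samples do not meet, with a lowest IVM bound of 0.985 and a highest IVO bound of 0.866, while those of Sirt5 do.

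The nuclear members did not pass the test. Sirt1, which deacetylates histones and factors such as p53 and the FOXO proteins, was at 24.64, 23.95 and 27.81 FPKM in IVM and at 26.51, 27.41 and 30.95 FPKM in IVO. The groups overlapped, since IVM replicate 3 lay above 2 of the 3 IVO samples. The log2FC was 0.15 (SE 0.18, 95% interval -0.28 to 0.57, limma adjusted p = 0.602), an interval that excludes a change of 1 log2 unit in either direction on the deposited scale. With quantile normalization, which moved the median of all genes to 0.172, Sirt1 passed with a log2FC of 0.61 (95% interval 0.20 to 1.03, adjusted p = 0.0430), and with the trend in gene length removed its direction turned to -0.11.

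Sirt6, a chromatin deacylase with roles in DNA repair and in the repression of HIF1α targets, was at 2.58, 1.06 and 2.53 FPKM in IVM and at 3.19, 2.58 and 2.42 FPKM in IVO. IVM replicate 2 was the low sample, and the other two IVM samples lay within the IVO range. The log2FC was 0.33 (SE 0.29, 95% interval -0.36 to 1.02, limma adjusted p = 0.469). With median-ratio scaling the log2FC of Sirt6 was 0.55. With quantile normalization it was 0.79 and the interval, 0.12 to 1.46, excluded 0, but the limma adjusted p was 0.0778. Sirt7, a nucleolar deacylase linked to RNA polymerase I, was at 4.58, 0.95 and 6.09 FPKM in IVM and at 2.91, 3.08 and 1.64 FPKM in IVO. Its IVM level was 3.87 ± 2.64 FPKM (SD, n = 3), and IVM replicate 2 lay below every IVO sample and the other two lay above them. The log2FC was -0.29 (SE 0.49, 95% interval -1.45 to 0.87, limma adjusted p = 0.712), and it ranged from -0.85 without IVM replicate 2 to 0.077 without IVM replicate 3, neither of which passed. IVM replicate 2 was also the lowest IVM sample for Sirt1, Sirt2 and Sirt3.

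The mitochondrial members did not pass the test either. Sirt4, which acts on lipoyl and other acyl groups and as an ADP-ribosyltransferase, was at 21.95, 15.93 and 14.81 FPKM in IVM and at 17.39, 14.72 and 21.01 FPKM in IVO. The groups covered almost the same range, with means of 17.6 ± 3.84 and 17.7 ± 3.16 FPKM (SD, n = 3). The log2FC was 0.02 (SE 0.23, 95% interval -0.53 to 0.57, limma adjusted p = 0.969), so a change of 1 log2 unit lay outside the interval on the deposited scale. With quantile normalization the log2FC was 0.51 and the interval, -0.03 to 1.05, included it.

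Sirt3, the main mitochondrial deacetylase, was at 2.24, 1.24 and 2.13 FPKM in IVM and at 1.05, 2.62 and 1.62 FPKM in IVO. The lowest and the highest of the 6 values were both IVO samples. The log2FC was -0.07 (SE 0.31, 95% interval -0.80 to 0.65, limma adjusted p = 0.888), and its sign turned with each library scaling tried. Sirt5, which removes succinyl, malonyl and glutaryl groups, was at 1.15, 1.77 and 1.93 FPKM in IVM and at 0.46, 0.81 and 1.45 FPKM in IVO. The samples IVM replicate 1 and IVO replicate 3 crossed, and the ratio of means was 1.78, IVM over IVO. The means were 1.62 FPKM in IVM and 0.907 FPKM in IVO, so Sirt5, like Sirt2, passed the filter on low values only through its IVM level. The log2FC was -0.48 (SE 0.30, 95% interval -1.18 to 0.22, limma adjusted p = 0.295). This interval is wide enough to hold both no change and a change as large as that of Sirt2. With quantile normalization the log2FC of Sirt5 was -0.01.

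**Figure D3:**
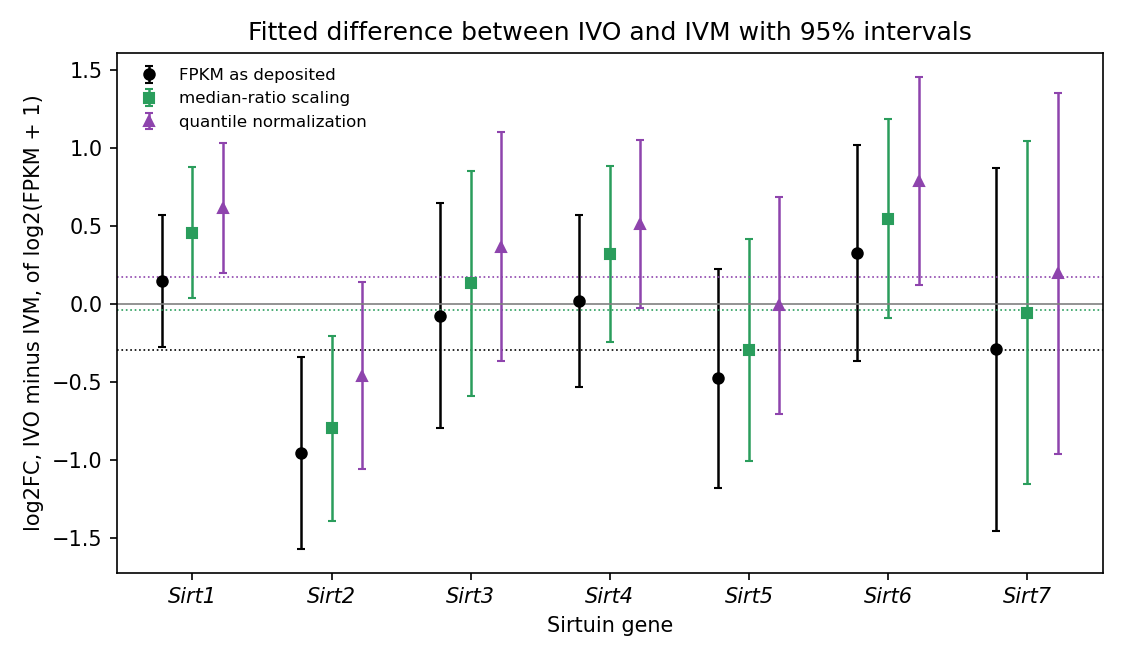
log2FC (IVO minus IVM) of each sirtuin with its 95% interval under the deposited scale, median-ratio scaling and quantile normalization, with the median of all tested genes for each scale. The interval of Sirt2 lies below 0 on the deposited scale (-1.57 to -0.34) and the intervals of the other 6 cross 0 there.

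The summed level of the 7 sirtuins did not separate the groups on the deposited scale. It was 59.38, 46.27 and 57.03 FPKM in IVM and 52.0, 51.73 and 59.37 FPKM in IVO, and the groups overlapped, with means of 54.2 ± 6.99 and 54.4 ± 4.34 FPKM (SD, n = 3). The summed FPKM of all genes was itself higher in IVM (1826738 to 2111776) than in IVO (1560813 to 1643682), and per 1000000 of this sum the sirtuins came to 28.3, 21.9 and 31.2 in IVM and 33.3, 33.1 and 36.1 in IVO, without overlap. With median-ratio scaling the ratio of the sirtuin sums, IVO over IVM, was 1.26. FPKM values are relative within a library, so less RNA of a gene per oocyte and more RNA of all other genes cannot be told apart.

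The share of Sirt2 in the family sum does not depend on a scale factor applied to a whole library. It was 3.77%, 2.96% and 3.03% in IVM and 0.942%, 0.986% and 0.472% in IVO. The ratio of Sirt2 to Sirt1 was 0.0909, 0.0572 and 0.0622 in IVM and 0.0185, 0.0186 and 0.00905 in IVO, with all IVM ratios above all IVO ratios and a difference of -2.23 on the log2 scale. The ratio of Sirt2 to Sirt3, Sirt4, Sirt6 or Sirt7 also separated the groups, with log2 differences of -1.95, -2.1, -2.59 and -1.8. The ratio to Sirt5 did not (log2 difference -1.13, exact permutation p = 0.3). The 5 separated ratios each had a two-sided exact permutation p = 0.1, the smallest that 3 against 3 samples allow, and 0.12 after Benjamini-Hochberg adjustment over the 6 ratios, which share the Sirt2 values. Sirt2 was set against the other members because its own values already separated the groups. The ratios and their p-values are therefore a description and no separate evidence.

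Annotated neighbours overlap several sirtuin genes, and the library kit does not mark strand, so reads from shared exons cannot be assigned. Sirt2 (chr7:28466160-28488090, plus strand) shares 42 exon bases with Nfkbib on the other strand, 0 of them between the canonical transcripts, and 537 with the lncRNA Gm19897 on the other strand, whose level was not analysed here. Nfkbib was at 9.95, 4.83 and 12.12 FPKM in IVM and at 9.18, 10.2 and 7.85 FPKM in IVO (limma adjusted p = 0.874), and these ranges overlapped. Sirt1 (chr10:63154581-63217483, minus strand) shares 707 exon bases with Herc4 over all transcripts and 0 between canonical ones. Herc4 was higher in all 3 IVO samples, 10.77 to 11.51 FPKM against 6.42 to 6.88 in IVM (log2FC 0.68, limma adjusted p = 0.0336), and its part in the Sirt1 values was not tested.

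Sirt6 (chr10:81455262-81463631, minus strand) lies between BC025920 and Ankrd24, both on the other strand. It shares 106 bases with Ankrd24 between canonical exons and 162 with BC025920 over all transcripts. Both neighbours fell in IVO, with a log2FC of -1.54 for Ankrd24 (limma adjusted p = 0.0160) and of -1.01 for BC025920 (adjusted p = 0.0198), while Sirt6 did not pass. Ankrd24, too, passed the filter only through IVM, since its IVO values were 0.13, 0.41 and 0.68 FPKM. Sirt3 (chr7:140443577-140462311, minus strand) overlaps Ric8a and Psmd13, which reached at most 0.09 and 0.78 FPKM. Sirt7 (chr11:120509197-120516066, minus strand) shares 125 exon bases with Mafg on the same strand, 0 between canonical transcripts, and Mafg did not pass (log2FC 0.33, limma adjusted p = 0.389). Sirt4 (chr5:115616065-115622784, minus strand) and Sirt5 (chr13:43518856-43550487, plus strand) overlap no coding gene, but share 284 and 629 exon bases with lncRNAs on the other strand. The genes whose 6 values were nearest to those of Sirt1 were Riok2, Klhl13 and Mtss1, with root-mean-square differences of 0.0498, 0.0583 and 0.0772 on the log2(FPKM + 1) scale over the 6 samples.

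The genes around the sirtuins were read from 7 lists of 76 genes, of which 54 were tested. In these lists 11 genes fell in IVO, 20.4% of those tested against 17.9% of all genes tested, and 0 rose, against 0.606% of all genes tested. At an unadjusted p under 0.05 14 of the 54 were lower and 0 higher, against 31.4% and 5.56% of all tested genes. The share that fell was close to the background.

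The list of SIRT2 substrates and H4K16 acetylation had 5 DEGs among 10 tested genes, all lower in IVO, with a median log2FC of -1.02, against 17.9% of all tested genes and a median of -0.296 over them. Kat8, the acetyltransferase for H4K16, fell from 26.96, 14.89 and 22.31 FPKM in IVM to 6.17, 6.71 and 6.71 FPKM in IVO (log2FC -1.53, limma adjusted p = 0.00683). Fzr1, an activator of the anaphase-promoting complex, fell as well (log2FC -1.56, adjusted p = 0.0351). The α-tubulin genes Tuba1a, Tuba1b and Tuba1c fell with log2FC values of -2.11, -1.68 and -1.58 (adjusted p = 0.0154, 0.0433 and 0.00849). Since these paralogs are nearly identical in sequence, their separate values are uncertain. Their calls may not be independent, and they enter both the count of 5 DEGs and the median of the list as separate genes. Tuba1b averaged 0.757 FPKM in IVO and passed the filter on low values only through IVM. The other tested members did not pass, among them Bub1b, the gene of BUBR1, at 186.82 to 260.79 FPKM in IVM and 206.23 to 246.44 FPKM in IVO.

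Among the mitochondrial sirtuin substrates, 4 of 11 tested genes fell and the median log2FC of the list was -0.238, against 17.9% of all tested genes and their median of -0.296. Idh2, the NADP-dependent isocitrate dehydrogenase that SIRT3 deacetylates, was at 110.61, 109.6 and 78.71 FPKM in IVM and at 5.76, 4.56 and 0.2 FPKM in IVO (log2FC -4.80, limma adjusted p = 0.00322). Acss1, a mitochondrial acetyl-CoA synthetase, had a log2FC of -2.77 (adjusted p = 0.00400). Ndufa9, a complex I subunit, had a log2FC of -1.33 (adjusted p = 0.0180). These changes stood beside Sirt3, Sirt4 and Sirt5 levels that did not pass. Sod2, the mitochondrial superoxide dismutase, did not pass either.

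SIRT1 regulators and substrates had 1 DEG among 7 tested genes, against 17.9% of all tested genes that were DEGs lower in IVO. Ccar2, an inhibitor of SIRT1, was at 25.68, 33.46 and 20.35 FPKM in IVM and at 5.82, 11.89 and 10.11 FPKM in IVO (log2FC -1.44, limma adjusted p = 0.0163), with no overlap between the groups. Other consumers of NAD had 1 DEG among 6 tested, against the same 17.9%. It was Sarm1, an NAD hydrolase, which fell (log2FC -1.42, adjusted p = 0.0134). In the NAD supply list 0 of 6 tested genes passed in limma (1, Nmrk1, at an unadjusted p under 0.05). Of all tested genes, 23.4% had an adjusted p under 0.05. At the unadjusted threshold 31.4% were lower in IVO and 5.56% higher. Its highest members were Nmnat2, which makes NAD from its mononucleotide, at 16.54 to 22.55 FPKM over all samples, and Nmrk1, a nicotinamide riboside kinase, at 16.91 to 20.39 FPKM in IVM and 9.88 to 14.46 FPKM in IVO (log2FC -0.57, adjusted p = 0.0969).

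Of the SIRT6 and SIRT7 partners 0 of 9 tested genes passed in limma (also 0 at an unadjusted p under 0.05), with a median log2FC of 0.138. Among all tested genes 23.4% passed at the adjusted p, and 31.4% were lower and 5.56% higher at the unadjusted p. The most abundant were Npm1, a nucleolar chaperone, at 1081.95 to 1692.69 FPKM, and Hif1a, at 80.87 to 117.3 FPKM over all samples. Of the zinc-dependent deacetylases, the class that does not use NAD, 0 of 5 tested genes passed in limma (1, Hdac8, at an unadjusted p under 0.05), with a median log2FC of -0.482. The same shares over all tested genes apply to this list. Hdac8 was the highest of this class, at 3322.02 to 5167.31 FPKM in IVM and 2693.8 to 3452.35 FPKM in IVO, above every sirtuin, and Hdac3 was at 38.71 to 130.15 FPKM over all samples.

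**Figure D4:**
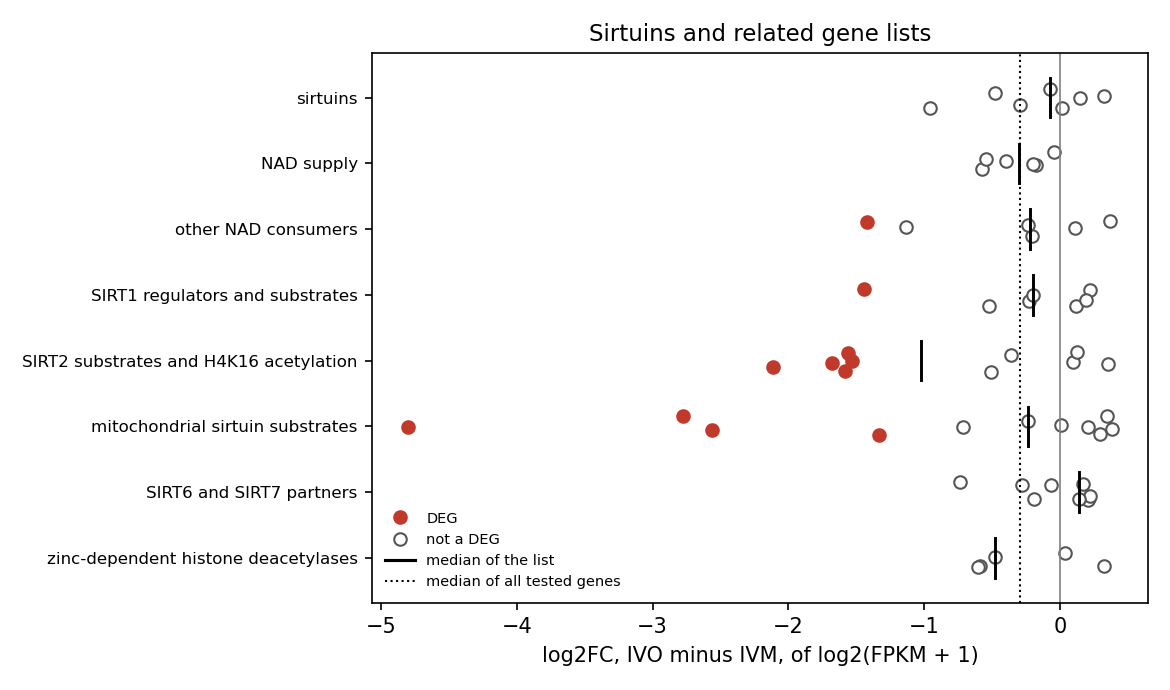
log2FC (IVO minus IVM) of every tested gene in the 7 lists and of the 7 sirtuins, with DEGs marked apart from genes that did not pass. The 11 DEGs of the lists lie below 0, and the sirtuins hold none.

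The samples carried the markers of oocytes. All 10 oocyte markers were tested, their summed level was 16140 to 19010 FPKM in IVM and 14800 to 17670 FPKM in IVO, and 5 of them were DEGs, all lower in IVO, against 17.9% of all tested genes. Of 12 cumulus and granulosa markers 3 were tested and 0 passed (limma adjusted p from 0.546 to 0.772), with summed levels of 30.94 to 61.79 FPKM in IVM and 34.45 to 57.53 FPKM in IVO, mostly Cyp19a1, Fshr and Amhr2. The cumulus expansion genes Has2, Ptgs2, Tnfaip6 and Ptx3 reached at most 0.5 FPKM in any sample and were not tested. Their means were higher in IVO, and Has2, Tnfaip6 and Ptx3 did not overlap between the groups. Non-overlap with higher IVO values was found in 9.62% of all tested genes. That share covers only genes averaging 1 FPKM or more, so it is no background for genes at levels this low, which rest on few fragments. The other markers of this list did not all have higher means in IVO. The means of Inha, Inhba, Foxl2, Amhr2, Cyp11a1 and Lhcgr were lower in IVO, and those of Cyp19a1 and Fshr were higher. Tnfaip6 was at 0.0, 0.14 and 0.03 FPKM in IVM and at 0.34, 0.49 and 0.45 FPKM in IVO. The part of these cells in the sirtuin values was not tested. Oviduct markers summed to at most 0.39 FPKM and blood cell markers to at most 3.65 FPKM, both in IVO samples. The inferred mean fragment length was 202 to 220 bases in IVM and 250 to 264 bases in IVO, a property of the libraries that moved with the group, and its part in the sirtuin values was not tested beyond the fit without the length trend.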

How the data were processed

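Full-length cDNA came from a SMART-Seq v4 kit and the libraries from a Nextera XT kit. The authors aligned paired-end reads to GRCm39 (HISAT2 2.1.0) and deposited FPKM per gene and sample from RSEM 1.3.3. The submitters' processing notes also name DESeq2 1.24.0, which needs counts. The annotation release is not given in the sources used here. The columns of group means were not used further.

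FPKM entered as deposited. limma 3.58.1 (lmFit, eBayes with trend, R 4.3.3) was run on log2(FPKM + 1) for genes averaging 1 FPKM or more over the 6 samples, with the group as the only term, and p-values are two-sided and adjusted over all 18818 genes. Depth was inferred from FPKM steps (multiples of 1 fragment, values up to 5 fragments, genes of 500 to 2000 bases, tolerance 0.0051 FPKM). By this reading 73.0% to 75.5% of such values were whole per library, against 14.3% to 16.6% from rounding alone, and the intervals hold counting error alone because PCR copies of a molecule are not independent. A value of 0 fragments would allow up to 3 fragments, 0.0949 to 0.111 FPKM for Sirt2. Both steps were also run on simulated data, with results not given here. The changes simulated for limma were larger than that of Sirt2, so that run does not show how well a change like it is detected. Sites and gene positions come from the GENCODE annotation of GRCm39. Python 3.11.15, pandas 2.3.3, numpy 2.4.6 and scipy 1.17.1 were used.

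The sirtuins and the gene lists were chosen with earlier results of these data known. Named genes were the 7 sirtuins, up to 5 DEGs of each list with the largest log2FC, or else its 2 genes of highest mean FPKM, genes overlapping a sirtuin, and the 3 genes nearest to Sirt1 in their values. The values of 1 further list gene are not reported here. Bub1b, Sod2 and the markers were named outside this rule, after their values were seen. Alternatives were another pseudocount (0.1), other filters, 3 library scalings, fewer genes in the fit, no variance trend, a replicate block, removal of the length trend (lowess span 0.3) and each sample left out. Protein sequences were not used here.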

Additional observations from a re-analysis of the deposited data

How the results depend on the processing

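The count of sirtuin DEGs was 0, and it became 1 (Sirt2) with a pseudocount of 0.1, with the length trend removed and without IVM replicate 2, so that leaving out samples gave 0 to 1. The count at an adjusted p under 0.05 was 1 and became 0 with a mean FPKM of at least 5 (2 sirtuins tested), with median-ratio scaling, with libraries scaled to the same sum, with the replicate block and with the length trend removed together with the replicate block, and leaving out samples gave 0 to 1. With quantile normalization the count stayed at 1, but the gene was Sirt1 and not Sirt2. The adjusted p of Sirt2 ranged from 0.0173 to 0.210 over 17 alternatives and was under 0.05 in 7 of them.

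The labels do not say whether replicate numbers pair the samples. Correlations of the deviations from the group means were -0.0618, -0.0176 and -0.107 for same-numbered samples. For samples of different number they ran from -0.0227 to 0.0809. The deviations within a group are tied to each other, so these values cannot show whether same-numbered samples shared a day or batch. The replicate block gave Sirt2 an adjusted p of 0.0962 and changed no other sirtuin call. The list DEGs that were lower in IVO numbered 11 and became 6 with quantile normalization and 6 to 11 when samples were left out (6 without IVM replicate 1), and those higher in IVO stayed at 0 in all fits. The ratio of the summed sirtuin levels moved from 1.0 to 1.26 with median-ratio scaling.

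Directions of sirtuins that did not pass turned as follows, with the cause not tested. Sirt1 was -0.11 and Sirt4 -0.17 with the length trend removed, with and without the replicate block. Sirt3 was 0.13 with median-ratio scaling, 0.13 with the same sum and 0.37 with quantile normalization, and Sirt7 was 0.20 with quantile normalization. Leaving out samples gave Sirt3 -0.29 to 0.12, Sirt4 -0.11 to 0.18 and Sirt7 -0.85 to 0.077. The low Sirt2, Sirt3, Sirt5, Sirt6 and Sirt7 levels rest on 8 to 178 fragments a sample, which limits what could be detected for them.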
